A study of Mus musculus with 16 samples.

Results

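Mammary tumours from mice that carried a STAT5 transgene were ranked by the signals of 3 macrophage genes, and the 4 tumours with the highest rank were set against the 4 with the lowest. The genes were Cd68, a lysosomal glycoprotein of macrophages, Csf1r, the receptor through which macrophages receive their survival signal, and Tyrobp, the adaptor that passes on signals of myeloid surface receptors. Both groups were thus chosen by the signals of these genes. The score of an array was the mean of log2(signal + 8) over these 3 genes, taken from the deposited signals. Ranking was limited to the 12 tumour arrays with a signal of Krt8, a keratin of luminal epithelium, above 100. The 8 arrays described here are therefore 8 of the 16 of the series, and the remaining 4 ranked tumours are called the middle 4.

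Every array held total RNA of 1 tissue sample of the FVB/N mouse strain. Tumours of the STAT5ca kind came from mice with a constitutively active STAT5, and tumours of the STAT5Δ750 kind from mice with a STAT5 that lacks its C-terminal end. The macrophage-rich group held tumours STAT5ca_171, STAT5Δ750_160, STAT5Δ750_165 and STAT5Δ750_254. The macrophage-poor group held STAT5ca_213, STAT5ca_159, STAT5Δ750_178 and STAT5Δ750_92. The labels name no treatment, so the 8 tumours shared the strain background and the presence of a STAT5 transgene. The labels used here give neither the promoter of the transgene nor the age of the mice. The labels number the tumours separately but do not say that each came from a different animal, so p-values measure the spread between these samples only. Also measured were 3 normal mammary glands and tumour STAT5ca_177, which was left out of the ranking at a Krt8 signal of 25.3.

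Macrophages are phagocytes that arise from monocytes or from embryonic precursors, and CSF1, acting through its receptor, keeps them alive. They take up dying cells, digest them in lysosomes, make complement C1q, present antigen on MHC class II and remodel matrix. In mammary tumours they are among the most common leukocytes, and in the normal gland they lie around ducts and in the fat pad. The transcription factor PU.1, encoded by Spi1, drives the myeloid gene programme from sites with the core GAGGAA.

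The promoters of genes that followed the score are shown with that core in mind. Each line gives the 250 bases before the RefSeq start site of a gene in build GRCm38.p6, 5′ to 3′ on the gene's strand, with the core in capitals in either orientation (GAGGAA, or TTCCTC where it lies on the other strand). C1qb and C1qc encode chains of complement C1q, and Slamf9 encodes a receptor of the SLAM family found on macrophages and dendritic cells. The windows are chr4:136886201-136886450 on the minus strand for C1qb, chr4:136892915-136893164 on the minus strand for C1qc and chr1:172475110-172475359 on the plus strand for Slamf9.
C1qb: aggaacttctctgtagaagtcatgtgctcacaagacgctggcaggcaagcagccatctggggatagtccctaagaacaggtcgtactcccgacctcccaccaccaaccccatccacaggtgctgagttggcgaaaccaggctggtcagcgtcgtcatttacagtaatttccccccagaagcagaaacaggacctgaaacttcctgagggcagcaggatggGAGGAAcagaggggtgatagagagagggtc
C1qc: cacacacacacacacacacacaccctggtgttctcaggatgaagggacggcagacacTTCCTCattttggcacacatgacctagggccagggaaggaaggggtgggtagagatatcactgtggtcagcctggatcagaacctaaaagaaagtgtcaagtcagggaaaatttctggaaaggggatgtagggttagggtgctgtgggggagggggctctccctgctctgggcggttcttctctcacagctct
Slamf9: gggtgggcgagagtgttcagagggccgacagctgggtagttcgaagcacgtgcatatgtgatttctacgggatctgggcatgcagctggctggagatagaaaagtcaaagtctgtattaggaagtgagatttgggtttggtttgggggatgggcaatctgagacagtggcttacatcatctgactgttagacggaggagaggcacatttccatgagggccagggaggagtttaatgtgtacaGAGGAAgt
The first base of the core lay 30 bases before the start in C1qb, 193 bases before it in C1qc and 8 bases before it in Slamf9. No entry was matched for C1qa and Spi1.

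Values of the score, which chose the groups, are given as a description. The macrophage-rich arrays had scores of 10.16, 10.13, 9.86 and 9.72 in the order in which they are named above, and the macrophage-poor arrays had 8.98, 8.65, 8.56 and 8.34. The group means were 9.97 ± 0.22 (SD, n = 4) and 8.63 ± 0.27 (SD, n = 4), which is a 2.52-fold difference on this scale. At the upper edge STAT5Δ750_254 at 9.72 was just inside and STAT5ca_124 at 9.56 just outside. At the lower edge STAT5ca_213 at 8.98 was just inside and STAT5ca_169 at 9.02 just outside. The 3 glands scored 10.09 to 10.15, in the range of the macrophage-rich tumours, and STAT5ca_177 scored 12.07.

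**Figure D1:**
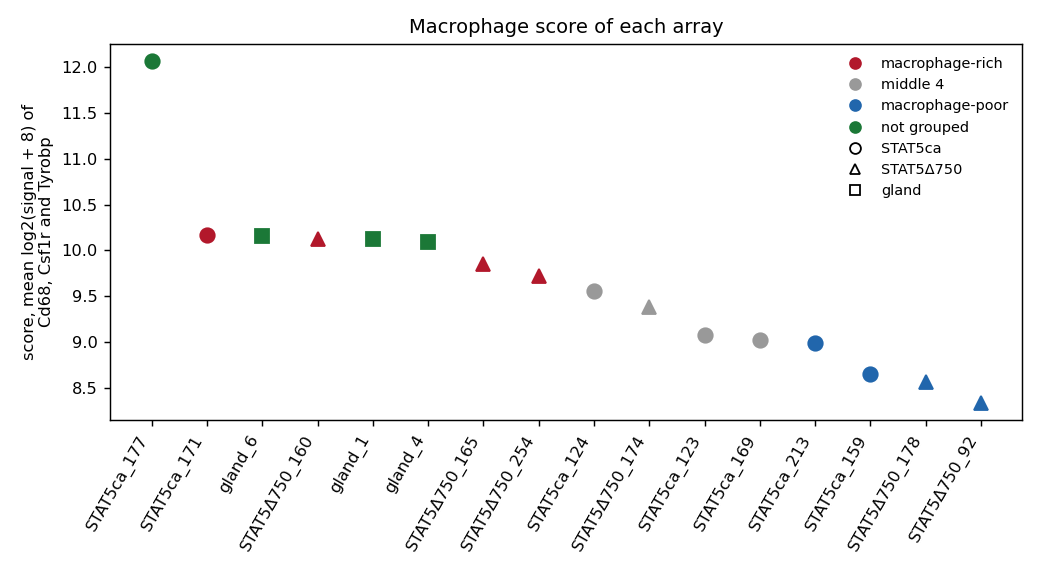
Macrophage score of the 16 arrays, as the mean of log2(deposited signal + 8) over Cd68, Csf1r and Tyrobp, in falling order; each point is 1 array, with colour for the group and shape for the transgene. The 12 ranked tumours run from 8.34 to 10.16 without a wide gap at either edge of the middle 4, the glands lie at 10.09 to 10.15 and STAT5ca_177 lies apart at 12.07.

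The deposited Cd68 signals were 875.9, 728.8, 598.6 and 592 on the macrophage-rich arrays and 376.5, 273.4, 258.8 and 219.8 on the macrophage-poor arrays. Csf1r stood at 1670.5, 1718, 1316.4 and 1066 against 622.3, 672.6, 693.3 and 442.1, and Tyrobp at 1008.1, 1096.9, 982.9 and 914.4 against 527.4, 330.6, 279.6 and 320.8. None of the 3 overlapped between the groups, as the rule makes likely. Krt8 did not separate them, with deposited signals of 3931.1 to 5375.9 in the macrophage-rich and 4693.7 to 5275.5 in the macrophage-poor tumours. In whole-tumour RNA, fewer macrophages and less RNA of these genes per macrophage cannot be told apart.

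The transgenes were unevenly spread, with 1 STAT5ca and 3 STAT5Δ750 tumours in the macrophage-rich group, 2 of each in the macrophage-poor group, and 3 STAT5ca and 1 STAT5Δ750 in the middle 4. The ratio of 3′ to 5′ signal of beta-actin, which grows as RNA degrades, was 1.78 ± 0.371 (SD, n = 4) in macrophage-rich and 2.97 ± 1.78 (SD, n = 4) in macrophage-poor tumours, with STAT5ca_213 highest of the latter at 5.23 (exact two-sided permutation p = 0.314, of a smallest possible 0.0286). Array medians were 77.57 ± 3.012 and 73.95 ± 8.252 (SD, n = 4 each, exact p = 0.514). STAT5Δ750_254 and STAT5ca_124 carried lymph node and lymphocyte genes that the other ranked tumours had at low levels. The sinus macrophage receptor Cd209b was at 650 on STAT5Δ750_254 and 263 on STAT5ca_124, and at no more than 23.4 on any other ranked tumour. The score itself depends on scale, since on signals scaled to a common median STAT5ca_124 takes the place of STAT5Δ750_254 and STAT5ca_169 that of STAT5ca_213.

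All further signals are scaled so that every array has the same median, and differences are macrophage-rich minus macrophage-poor in log2(signal + 7.9) with the standard error of a limma model, a scale that understates the change of dim genes. In this order, 4 values for a group follow the naming of its tumours above. Over 9258 genes, the 3 score genes excepted, 0 passed a Benjamini-Hochberg adjusted p of 0.05 (limma, 0% called), and 868 had an unadjusted p under 0.05, which is 9.38% of the genes. Of these, 402 (4.34%) were higher and 466 (5.03%) lower in macrophage-rich tumours. A p here asks only whether a gene follows the 3 genes of the score. All 4 macrophage-rich arrays lay above all 4 macrophage-poor arrays for 236 genes (2.55%) and below them for 347 (3.75%). That split, 40.5% higher, was 54.8% higher with the deposited scaling and 51.7% with quantile normalization. The median difference over all genes was -0.12, against which the lists below are to be read. Counts of list genes without overlap are to be read against 2.55% upward and 3.75% downward. The share of all genes with a positive difference is not given here, so counts of positive members are a description only.

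Of the 5 genes with the smallest p, 4 lay outside the gene lists, and these were named after their values were seen. Slamf9 was at 156, 176, 136 and 122 on the macrophage-rich and 56.8, 51.2, 43.6 and 51.3 on the macrophage-poor arrays. Every macrophage-rich array was above the highest macrophage-poor one, and the middle 4 lay between the groups at 93.4 to 118. The difference of 1.40 ± 0.19 (SE, n = 4 against 4, 2.64-fold) had the smallest adjusted p of the limma fit, 0.0681, with a range of 0.00936 to 0.411 over the alternatives. Evi2a, a membrane protein gene that lies within an intron of Nf1, stood at 180, 194, 212.9 and 205 against 74, 75.9, 65.5 and 63.2. Its groups lay far apart relative to their spread, at 1.41 ± 0.23 (limma adjusted p = 0.151, 0.0449 to 0.624 over the alternatives). Gpr65, a proton-sensing receptor of leukocytes, differed by 1.36 ± 0.22 (limma adjusted p = 0.151, 0.0652 to 0.509) and Gpr34, a lysophosphatidylserine receptor of microglia and other macrophages, by 1.19 ± 0.21 (limma adjusted p = 0.167, 0.0748 to 0.703). Both were higher on all 4 macrophage-rich arrays than on any macrophage-poor array.

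Other macrophage identity genes were mostly higher in the macrophage-rich tumours. They mark the same cells as the score, so they are described without a test. Of 16 measured genes 15 had a positive difference and 6 did not overlap, with a median of 0.95, or 1.06 above that of all genes. Among all genes tested 2.55% lay higher without overlap. The mean of the list on each array was 8.03 to 8.40 in the macrophage-rich and 7.06 to 7.74 in the macrophage-poor group, and 8.17 to 8.19 in the glands. Aif1, an actin-binding protein of macrophages also known as IBA1, was at 263, 357, 252 and 136 against 78.5, 56.8, 46.2 and 77.4. STAT5Δ750_254 was the lowest of the macrophage-rich arrays and still above all the macrophage-poor ones, and the difference was 1.79 ± 0.38. Spi1 was at 85.2, 145, 86.7 and 101 against 53.2, 45.1, 41.9 and 34.9, a difference of 1.10 ± 0.24. Mpeg1, a pore-forming protein of phagocytes, was at 1193, 1491, 874 and 1117 against 783, 443, 290 and 295, a difference of 1.45 ± 0.33. In both genes the groups were apart, and the highest macrophage-poor array was STAT5ca_213. Pld4, an endolysosomal nuclease, differed by 1.11 ± 0.31 and Mrc1, the mannose receptor, by 1.28 ± 0.55, again without overlap.

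Not every macrophage marker separated the tumours. Adgre1, the F4/80 antigen, was at 347, 250, 209 and 175 against 190, 134, 132 and 131. Its groups overlapped because STAT5ca_213 exceeded STAT5Δ750_254, and the difference was 0.69 ± 0.25. Cd14, the co-receptor for lipopolysaccharide, was at 3237, 2889, 1188 and 1757 against 4847, 1568, 1774 and 2379, a difference of -0.18 ± 0.48 that took the opposite sign in 5 of the alternatives. The highest Cd14 signal of the 8 arrays belonged to the macrophage-poor STAT5ca_213. Cd163, a haemoglobin scavenger receptor, differed by 0.18 ± 0.54 and Itgam, the integrin CD11b, by 0.36 ± 0.35, both with overlap.

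The 3 genes of complement C1q were higher on every macrophage-rich array than on any macrophage-poor array, while the Fc receptor and other complement genes overlapped. All 11 measured members of the list had a positive difference, and the median was 1.23, or 1.34 above all genes. C1qc was at 1526, 1552, 1213 and 839 against 551, 374, 442 and 415, a difference of 1.48 ± 0.25 (2.79-fold). C1qa was at 2451, 2588, 2098 and 1250 against 1054, 748, 792 and 866, and C1qb at 2004, 1913, 1650 and 878 against 847, 586, 556 and 588, with differences of 1.23 ± 0.25 and 1.26 ± 0.28. These 3 genes encode the chains of one molecule and showed one order of arrays at the edges, with STAT5Δ750_254 lowest of the macrophage-rich and STAT5ca_213 highest of the macrophage-poor. Fcer1g, the signalling chain shared by Fc receptors, was at 655, 783, 525 and 319 against 330, 157, 147 and 228. It overlapped by 1 pair of arrays, STAT5Δ750_254 being below STAT5ca_213, and differed by 1.37 ± 0.32.

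The lysosomal and phagosome list had 19 of 20 positive differences, 4 without overlap and a median of 0.59, or 0.71 above all genes. Ncf1, a subunit of the phagocyte NADPH oxidase, was at 99.5, 78.7, 85.4 and 139 against 40.2, 31.8, 34.9 and 24.5, a difference of 1.40 ± 0.26. Laptm5, a lysosomal membrane protein of haematopoietic cells, was at 835, 834, 560 and 810 against 519, 242, 184 and 196, a difference of 1.5 ± 0.37. Both kept the groups apart, with STAT5Δ750_165 the lowest macrophage-rich array for Laptm5. The cysteine cathepsin Ctss differed by 0.97 ± 0.24 and Ctsz by 0.82 ± 0.22, also without overlap.

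Genes of alternative activation and of tumour macrophages were less uniform. Their median was 0.82, or 0.94 above all genes, with 16 of 18 positive and 4 not overlapping, and the differences ran from -2.38 to 1.65. Trem2, a lipid-sensing receptor of tumour macrophages that signals through the Tyrobp protein, was at 125, 162, 132 and 103 against 118, 41.5, 29.1 and 21.3. The macrophage-poor STAT5ca_213 thus lay among the macrophage-rich arrays, and the difference was 1.43 ± 0.41. Folr2, a folate receptor of tissue macrophages, was at 142, 146, 147 and 107 against 62.6, 49.7, 97.4 and 27.2, without overlap, a difference of 1.19 ± 0.35. Arg1, the arginase of alternatively activated macrophages, was at 293, 3190, 759 and 800 against 1220, 381, 296 and 247, with overlap and a difference of 1.0 ± 0.75. Within the STAT5Δ750 tumours Arg1 differed by 2.17 and within the STAT5ca tumours, with 1 macrophage-rich array, by -1.20. The Arg1 difference was 0.38 without STAT5Δ750_160 and 1.52 without STAT5ca_171. Cd36, a fatty acid receptor that capillaries, adipocytes and mammary epithelium also make, was the lowest of the list at -2.38 ± 1.14. Vegfa, which tumour cells also make, was the other member with a negative difference, at -1.02 ± 0.48.

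**Figure D2:**
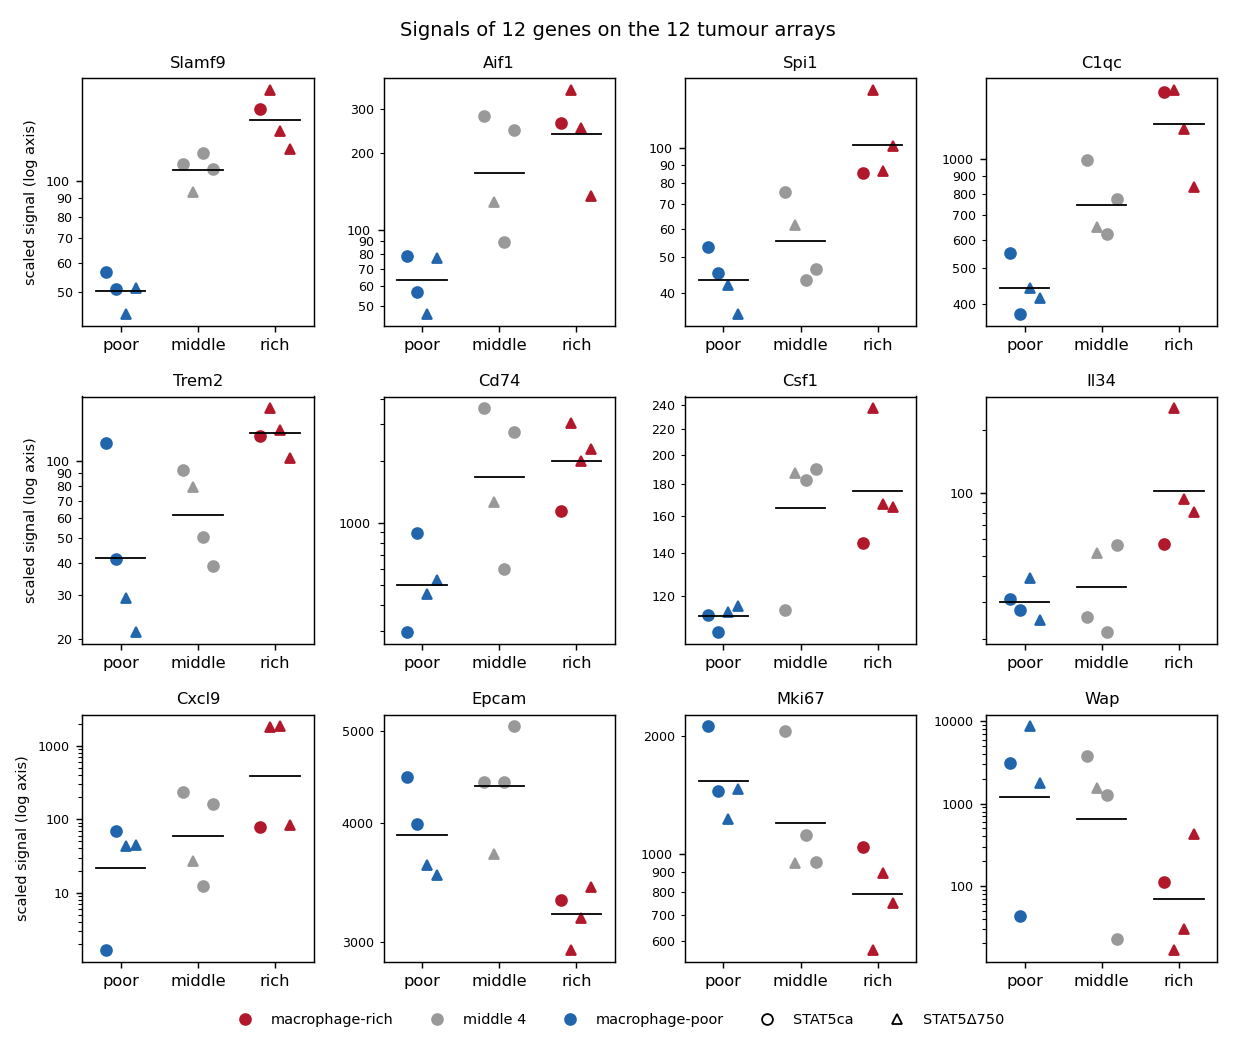
Scaled signals of 12 genes on the 12 ranked tumours, on log axes that differ between panels; each point is 1 array, with shape for the transgene, and the bar is the geometric mean of 4 arrays. In Slamf9, Aif1, Spi1, C1qc, Cd74, Csf1, Il34 and Cxcl9 all macrophage-rich points lie above all macrophage-poor points, in Epcam and Mki67 below them, and in Trem2 and Wap the groups overlap.

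The inflammatory genes had a median of -0.01, or 0.11 above that of all genes, with 8 of 17 positive and 3 not overlapping. This value rested on single arrays, since it was 0.65 without STAT5ca_213 and -0.29 without STAT5Δ750_92, and 0.70 with groups ranked on scaled signals. The mean of the list on each array ran from 6.12 to 6.91 in macrophage-rich and from 5.64 to 7.71 in macrophage-poor tumours, with STAT5ca_213 above all others. Il1b, which encodes the cytokine interleukin-1 beta, was at 34.8, 211.9, 213.4 and 90.9 against 554, 104, 32.5 and 37.1. Tnf, the cytokine tumour necrosis factor, was at 59.5, 26.9, 2.32 and 62.2 against 58.2, 38.0, 36.1 and 32.5. Neither gene ordered the arrays by the score, with differences of 0.21 ± 0.79 and -0.42 ± 0.53. Cd86, a co-stimulatory ligand for T cells, was at 39.5, 65.0, 76.2 and 95.9 against 25.8, 30.4, 20.3 and 35.0, without overlap, a difference of 1.07 ± 0.38.

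The growth factors and chemokines that maintain and attract macrophages had a median of 0.72, or 0.84 above all genes, with 15 of 16 positive and 5 not overlapping. Csf1, a ligand of the receptor in the score, was at 145, 237, 167 and 165.3 against 112, 105, 113 and 116. The macrophage-poor arrays were nearly level with each other and all below the others, and the difference was 0.62 ± 0.22 (limma adjusted p = 0.467, 0.271 to 0.947 over the alternatives). With the mean of its probe sets in place of the brightest, the Csf1 difference was 0.28. Il34, the other ligand of that receptor, was at 56.6, 254.3, 93.0 and 80.3 against 30.9, 27.6, 39.1 and 24.5. STAT5Δ750_160 was the highest by far, and the groups were apart at 1.54 ± 0.41 (limma adjusted p = 0.355, 0.2 to 0.865). The glands had Csf1 at 290 to 368, above all ranked tumours, and Il34 at 26.8 to 30.8, in the range of the macrophage-poor tumours. The monocyte attractant Ccl2 was at 78.2, 270, 95.7 and 64.8 against 48.0, 38.7, 40.9 and 45.7, without overlap, and differed by 1.18 ± 0.36. Its relatives Ccl8 and Ccl12 differed by 1.60 ± 0.64 and 1.18 ± 0.33, both without overlap.

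Antigen presentation genes were higher in macrophage-rich tumours without passing the test. The MHC class II list had a median of 1.32, or 1.44 above all genes, with 8 of 8 positive and 4 not overlapping. Its mean was 7.94 to 8.67 in macrophage-rich and 6.61 to 7.46 in macrophage-poor tumours, while STAT5ca_124 and STAT5ca_169 of the middle 4 were above both groups. Cd74, the invariant chain that escorts class II molecules, was at 1136, 3042, 1997 and 2286 against 295, 890, 451 and 531, a difference of 1.97 ± 0.53 (limma adjusted p = 0.372). H2-Ab1, a class II beta chain, was at 370, 1273, 826 and 893 against 141, 240, 172 and 190, a difference of 2.03 ± 0.61 (limma adjusted p = 0.38). STAT5ca_171, the array with the highest score, was the lowest of the macrophage-rich arrays in both. It was the highest of them in H2-Eb1, another class II beta chain, at 661.5, 85.31, 70.82 and 92.63 against 36.54, 262.3, 57.69 and 22.24. The H2-Eb1 groups overlapped, with a difference of 1.09 ± 1.07. The class I list had 9 of 9 positive differences, a median of 0.68 and 1 gene without overlap, the immunoproteasome subunit Psmb10 at 1.14 ± 0.46. Against a background of 2.55%, 1 gene without overlap in a list of this size is not a result about the list, and the same holds for the other lists with 1 such gene.

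Interferon response genes had 16 of 16 positive differences and a median of 1.14, or 1.26 above all genes, but only 1 did not overlap. The median was 0.69 without STAT5Δ750_178, 1.68 without STAT5Δ750_254 and 0.64 with groups ranked on scaled signals. Cxcl9, a chemokine induced by interferon gamma that attracts T cells, was at 77.9, 1821, 1881 and 84.3 against 1.62, 68.7, 43.8 and 44.4. STAT5Δ750_160 and STAT5Δ750_165 were far above the other arrays, and the difference of 3.44 ± 1.18 had a limma adjusted p of 0.459. Cxcl10, its close relative, was at 59.0, 983, 1168 and 60.9 against 37.9, 62.8, 19.4 and 140, with overlap and a difference of 2.17 ± 0.93. The same 2 arrays were high. The list mean was 10.10 on STAT5Δ750_160 and 7.27 on STAT5Δ750_254, so that the macrophage-rich group spanned more than the macrophage-poor group, which ran from 6.33 to 8.29.

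Genes of haematopoietic cells in general were higher beside those of macrophages. The common leukocyte list had 12 of 12 positive differences, 9 without overlap and a median of 1.41, or 1.53 above all genes. Arhgdib, a gene of haematopoietic cells, was at 456, 972, 433 and 955 against 248, 148, 191 and 138, a difference of 1.85 ± 0.38 (limma adjusted p = 0.301). Ptprc, the pan-leukocyte antigen CD45, was at 557, 503, 648 and 1189 against 242, 270, 190 and 366. STAT5Δ750_254 was the highest in Ptprc, and the groups did not overlap, at 1.37 ± 0.51 (limma adjusted p = 0.469). The list of myeloid signalling and transcription factors had 21 of 21 positive differences, 9 without overlap and a median of 0.88. Among them the leukocyte signalling protein Vav1 differed by 0.88 ± 0.23 (limma adjusted p = 0.358) and the transcription factor Irf8, needed by dendritic cells and monocytes, by 1.49 ± 0.43 (limma adjusted p = 0.38).

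Markers of other leukocytes were carried to a large extent by STAT5Δ750_254. For the T and NK cell list the median was 0.66, with 16 of 18 positive and 1 not overlapping, and the mean was 6.65 on STAT5Δ750_254 but 4.54 to 4.74 on the other macrophage-rich arrays and 4.21 to 4.64 on the macrophage-poor ones. Cd3d, a chain of the T cell receptor complex, was at 21.4, 34.0, 31.5 and 338 against 2.78, 25.0, 0.874 and 9.43. Cd3e, another chain of that complex, was at 10.1, 23.5, 3.48 and 62.4 against 11.4, 20.4, 14.3 and 9.43. For Cd3g, a further chain, the signals were 29.9, 22.7, 42.1 and 203 against 5.68, 21.0, 15.4 and 24.1. Of these 3 genes STAT5Δ750_254 had the highest signal each time, and the signals of the other 7 arrays were at most 42.1. The B and plasma cell list had a median of 0.66, with 8 of 10 positive and 1 not overlapping, and a mean of 8.47 on STAT5Δ750_254 against 4.47 to 4.96 on the other macrophage-rich and 4.43 to 5.55 on the macrophage-poor arrays. Cd79a, part of the B cell receptor, was at 8.10, 1.80, 14.9 and 202 against 6.84, 3.28, 13.7 and 6.87. Cd22, of the same list, did not overlap, at 60.45, 53.61, 51.31 and 207.1 against 33.06, 13.99, 23.51 and 16.09. Without STAT5Δ750_254 the difference was still 1.13 for Cd22 and 1.26 for Cd3d, but 0.01 for Cd79a and -0.20 for Cd3e. The lymph node list had a median of 0.70, with 6 of 7 positive and 1 not overlapping, and means of 8.34 on STAT5Δ750_254 against 4.97 to 5.39 and 4.55 to 5.69. Marco, a scavenger receptor of lymph node and splenic macrophages, was at 1.70, 0.80, 0.87 and 321 against 0.513 to 1.06, so that a macrophage gene of such sites was bright on STAT5Δ750_254 and near 0 on the other 7.

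Without STAT5Δ750_254 and STAT5ca_124 the medians of these lists were -0.01 for T and NK cells, -0.31 for B and plasma cells and 0.04 for the lymph node, and that of dendritic cells was 0.17 in place of 0.92. The macrophage identity list kept a median of 0.96, C1q and Fc receptors had 1.46, the common leukocyte list 1.18, MHC class II 1.39 and the interferon response 1.68. Among dendritic cell genes 8 of 9 were positive and 2 did not overlap. Cd83, a marker of mature dendritic and B cells, was at 133, 118, 94.9 and 226 against 53.0, 42.0, 44.7 and 43.0. The Cd83 difference was 1.43 ± 0.41 (limma adjusted p = 0.38), and 1.19 without STAT5Δ750_254. Granulocyte genes had a median of 0.15, 6 of 9 positive and 0 without overlap, and the calcium-binding protein S100a8 was at 55.3, 720, 885 and 2510 against 2437, 287, 149 and 291. The granulocyte median was -0.29 without STAT5Δ750_254, 0.75 without STAT5ca_213, 0.66 without STAT5ca_171 and 0.83 with the beta-actin ratio as a covariate. Mast cell genes had a median of 0.22, with 5 of 6 positive and 0 without overlap, and a median of -0.31 without STAT5Δ750_254 and 0.56 without STAT5Δ750_178.

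**Figure D3:**
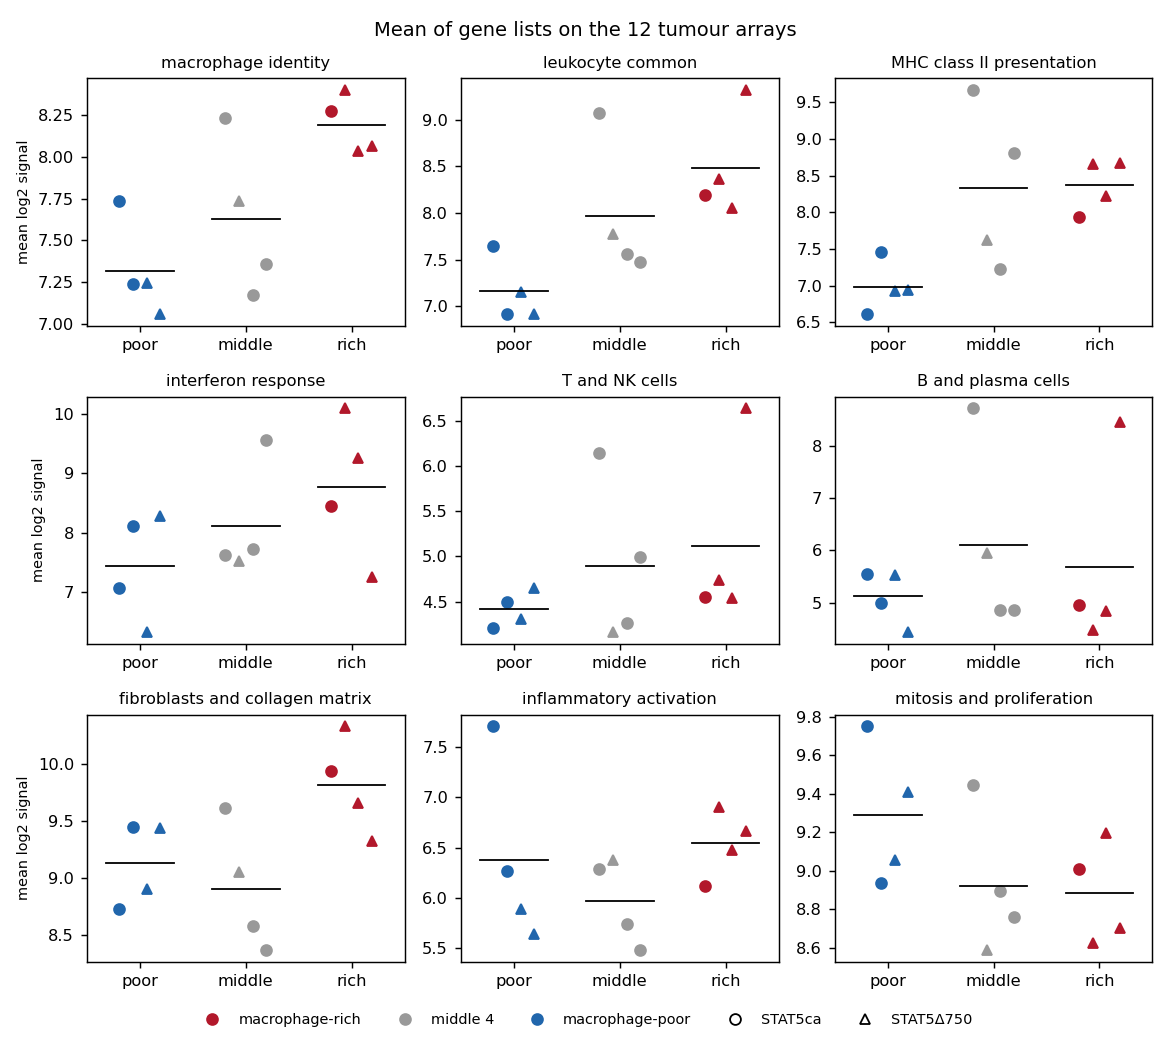
Mean log2(scaled signal + 7.9) of 9 gene lists on each of the 12 ranked tumours, with axes that differ between panels; each point is 1 array, with shape for the transgene, and the bar is the mean of 4 arrays. Macrophage identity, common leukocyte and MHC class II means do not overlap between the outer groups, while the T and B cell panels have 1 high macrophage-rich array, STAT5Δ750_254, at 6.65 and 8.47.

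Luminal genes differed little between the groups. The luminal list had a median of -0.28, or -0.16 relative to all genes, with 4 of 17 positive. It had 0 genes without overlap upward and 2 downward, where 3.75% of all genes tested lay downward. Its median was -0.10 without STAT5Δ750_165. Epcam, the epithelial adhesion molecule, was at 3318, 2938, 3181 and 3423 against 4476, 3994, 3617 and 3527. All macrophage-rich arrays were below all macrophage-poor ones, by -0.28 ± 0.18 (limma adjusted p = 0.628). That separation depended on the scaling, since on the deposited signals STAT5Δ750_254 lay above STAT5Δ750_92. After quantile normalization the Epcam difference was -0.16. Elf5, the transcription factor of alveolar luminal cells, was at 2859, 518, 1529 and 3170 against 4452, 3378, 4710 and 4087, a difference of -1.33 ± 0.64 (limma adjusted p = 0.539) that was -0.78 without STAT5Δ750_160 and -0.45 with groups ranked on scaled signals. Krt8 differed by -0.15 ± 0.23 and Krt18, its partner keratin, by -0.28 ± 0.20, with overlap in both. After quantile normalization Krt8 had the opposite sign, at 0.10, and Krt18 was at -0.03. The basal and myoepithelial list had 10 of 11 positive and a median of 0.79, with 0 without overlap, and the median was 0.44 without STAT5Δ750_160. Its keratin Krt14 was at 184, 2223, 643 and 70.5 against 466, 566, 42.4 and 164, so that STAT5Δ750_160 alone stood above the rest. Without that tumour the Krt14 difference was -0.04, in place of 0.80. With groups ranked on scaled signals the Krt14 difference was 3.31 and the median of the list was 1.18.

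Milk protein genes were mostly lower in macrophage-rich tumours but too variable to separate them. Their median was -0.98, or -0.87 relative to all genes, with 2 of 13 positive and 0 without overlap, and it was -0.32 without STAT5Δ750_178, -0.58 without STAT5Δ750_160, -0.64 without STAT5ca_213 and 0.08 with groups ranked on scaled signals. Wap, the whey acidic protein, was at 111, 16.4, 29.9 and 433 against 3147, 42.9, 8854 and 1790. STAT5ca_159 lay among the macrophage-rich arrays, and the difference of -3.92 ± 1.70 had a limma adjusted p of 0.505. Csn2, the beta casein, was at 5548, 4280, 4708 and 7781 against 6811, 5652, 8752 and 8037, a difference of -0.41 ± 0.57 that was 0.32 with groups ranked on scaled signals. Endogenous and transgenic STAT5 RNA were not told apart here. Stat5a was at 96.6, 147, 184 and 152 against 247, 328, 570 and 101, with STAT5Δ750_92 overlapping and a difference of -0.86 ± 0.48, and Stat5b at 205, 148, 211 and 278 against 423, 393, 413 and 262, a difference of -0.81 ± 0.29.

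Proliferation genes had 0 of 20 positive differences and a median of -0.36, or -0.24 relative to all genes. The median itself was -0.28 with the deposited scaling, -0.29 after quantile normalization and -0.19 without STAT5ca_213. In each of these settings the median of all genes was -0.05. With groups ranked on scaled signals it was 0.03, where that of all genes was 0.04. Of the 20 proliferation genes 3 lay lower without overlap, as did 3.75% of all genes tested. Mki67, the Ki-67 antigen of cycling cells, was at 1040, 568, 892 and 748 against 2121, 1446, 1231 and 1460. All macrophage-rich arrays were lower, by -0.94 ± 0.30 (limma adjusted p = 0.41, 0.236 to 0.958 over the alternatives). Hypoxia and glycolysis genes had 3 of 16 positive and a median of -0.49, or -0.38 relative to all genes. There were 3 of 16 without overlap downward, against the same 3.75% of all genes. Ldha, the lactate dehydrogenase that ends anaerobic glycolysis, was at 4168, 3956, 4265 and 4265 against 6281, 4425, 6027 and 6467, a difference of -0.46 ± 0.20 (limma adjusted p = 0.499). The glycolytic aldolase Aldoa was at 3062, 3304, 3441 and 3184 against 4868, 3576, 4662 and 4805, a difference of -0.45 ± 0.19. In both the macrophage-rich arrays were close together and below all macrophage-poor ones.

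Stromal genes were higher on the whole, with overlapping groups. The fibroblast and collagen list had 19 of 19 positive differences, a median of 0.74, or 0.86 above all genes, and 0 genes without overlap. Col6a2, a chain of microfibrillar collagen, was at 860, 1474, 754 and 478 against 269, 493, 381 and 481, a difference of 1.04 ± 0.36 (limma adjusted p = 0.458). Only STAT5Δ750_254 lay within the macrophage-poor range. Matrix proteases and their inhibitors had a median of 0.48, with 9 of 13 positive and 1 not overlapping, and 0.27 without STAT5Δ750_160. That gene was the metalloproteinase inhibitor Timp1, at 284, 1275, 564 and 239 against 196, 152, 179 and 153, a difference of 1.44 ± 0.50 (limma adjusted p = 0.462). Endothelial genes had a median of 0.20, with 11 of 14 positive and 1 without overlap, the adhesion molecule Pecam1 at 177.9, 194, 172 and 196 against 100, 131, 156 and 141. The endothelial median was 0.10 without STAT5Δ750_160 and 0.37 without STAT5Δ750_178. Adipocyte genes had a median of 0.27 and 6 of 10 positive, and the median was -0.21 without STAT5ca_213, -0.06 without STAT5Δ750_254 and 0.70 without STAT5Δ750_178. Skeletal muscle genes had 0 of 14 positive and a median of -0.65, and STAT5Δ750_178 stood out at a list mean of 10.40, against 4.75 for the lowest macrophage-poor array. Without that tumour the muscle median was 0.52, and without STAT5ca_213 it was -1.40. Of the red blood cell list 1 gene was bright enough to be tested, the haem synthesis enzyme Alas2 at 0.20 ± 0.49.

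**Figure D4:**
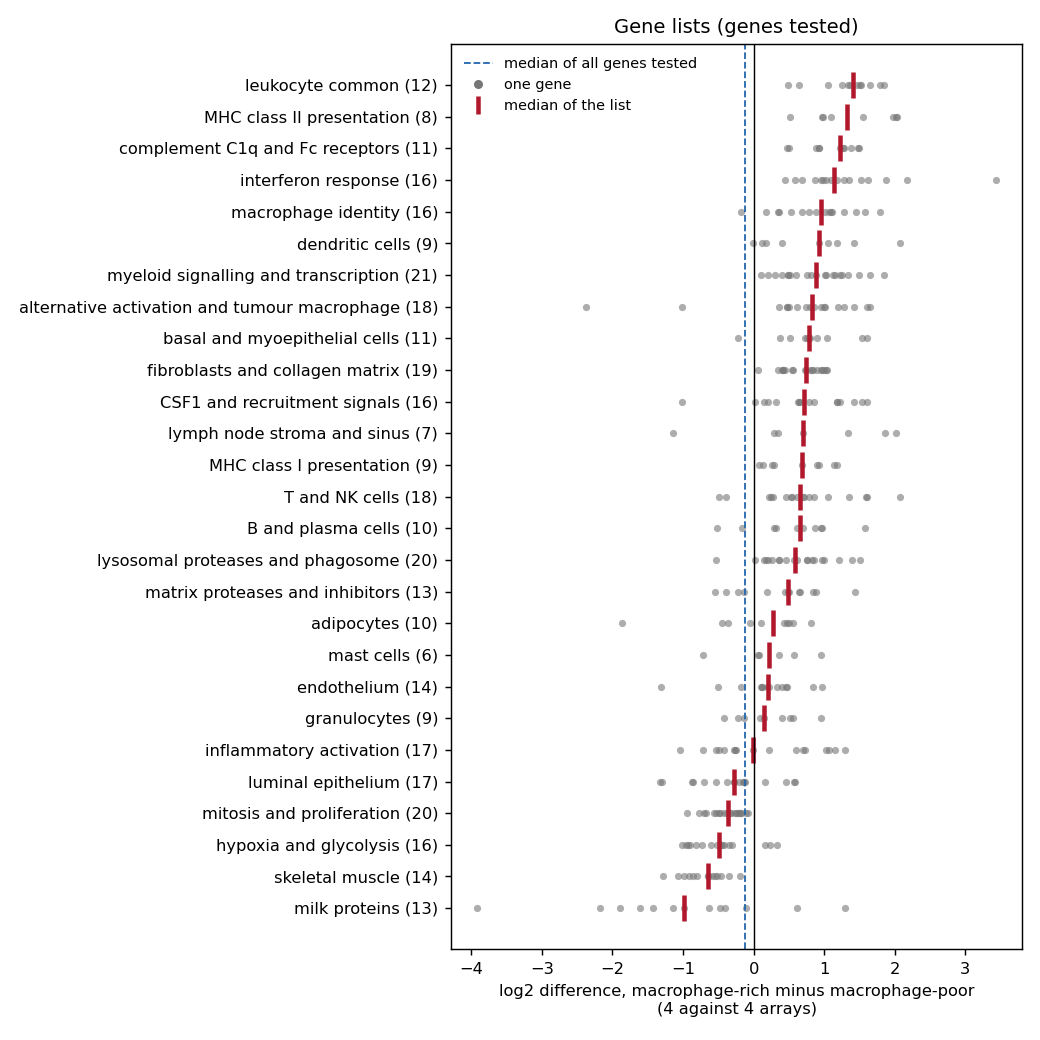
Difference of each gene between macrophage-rich and macrophage-poor tumours, in log2 units, for 27 gene lists ordered by their median; grey points are genes, red bars are list medians, the solid line is 0 and the dashed line is the median of all genes tested, -0.12. The lists of leukocytes, MHC class II, C1q and interferon response have medians above 1, and those of luminal epithelium, mitosis, hypoxia, skeletal muscle and milk proteins have medians below that of all genes.

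The 2 transgenes could be compared only loosely. Within the STAT5Δ750 tumours, 3 macrophage-rich against 2 macrophage-poor, the mean of the macrophage identity list differed by 1.02, and within the STAT5ca tumours, 1 against 2, by 0.78. The C1q and Fc receptor list differed by 1.23 and 0.97, the common leukocyte list by 1.55 and 0.91, MHC class II by 1.59 and 0.91 and the interferon response by 1.56 and 0.86. These lists had the same direction in both kinds of tumour. Slamf9 differed by 1.45 within STAT5Δ750 and 1.41 within STAT5ca, and C1qc by 1.43 and 1.73. A limma test of whether the slope on the score differed between the transgenes over the 12 ranked tumours found 0 of 9258 genes at an adjusted p of 0.05 (0% called) and 204 at an unadjusted p under 0.05, which is 2.2%. With the transgene as a covariate, the limma fit of the groups passed 0 of 9258 genes, with a smallest adjusted p of 0.101. In that fit 744 genes had an unadjusted p under 0.05, against 868 without the covariate, and the median over all genes was -0.10. With the beta-actin ratio as a covariate the differences were 1.47 for Slamf9, 1.58 for C1qc and 1.94 for Aif1. They are to be read against a median over all genes of -0.02 in the fit with the beta-actin ratio, in place of -0.12. The smallest limma adjusted p of that fit was 0.105, in place of 0.0681.

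The core of the PU.1 site was counted in the promoters of the genes whose groups did not overlap. It was present, on either strand, in 31.9% of 260 promoters of genes with all macrophage-rich arrays above all macrophage-poor arrays, which are those of 183 of the 236 genes. Among the genes with the reverse order it was present in 19.2% of 370 promoters. The share was 22.6% of 9639 promoters of all genes tested, 23.3% of 32851 in the whole table, and 34.3% of 70 for the macrophage and leukocyte lists. A match is only a run of letters in the window, and these shares are given as a description.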

How the data were processed

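Total RNA of 13 mammary tumours and 3 normal glands had been hybridised to Affymetrix mouse arrays, 1 array per sample. The deposited values were the authors' signal intensities on a linear scale, made with MAS5 per the submitters' processing notes, which give no version, for 22690 probe sets. Trimmed by 2 percent at either end, the mean was 250.08 or 250.09 on every array, so the deposited intensities had been scaled to 1 trimmed mean. Array medians ran from 57.3 to 90.7, and each array was scaled here to a common median of 74.01. The number of arrays limits the precision.

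An offset of 7.9, the 20th percentile of the deposited values, was added before log2. Probe sets above 35.4, the 40th percentile, on at least 3 of the 16 arrays were kept. Of all probe sets 20393 carried 1 gene symbol, 691 several and 1606 none, and the probe set with the highest mean stood for each gene, which gave 9261 genes. A limma model (version 3.58.1, R 4.3.3) was fitted to the 12 ranked tumours in 3 groups that share 1 estimate of the spread per gene (9 residual and 3.3 prior degrees of freedom), two-sided, with Benjamini-Hochberg adjustment over 9258 genes. The procedure was tested on simulated data. The groups, the 28 gene lists and the named genes were chosen with earlier results of these data known. Where none passed, the named members of a list were up to 4 with the smallest p, beside genes named in any case, and others are given as examples of markers chosen after their values were seen. Promoters came from RefSeq (GRCm38.p6) by gene symbol. Alternatives covered scaling, offset, filter, probe set, variance model, arrays in the fit, covariates, grouping, a fold change of at least 2 and arrays left out. No array dates were used, so no batch was examined. Matplotlib 3.10.9 under Python 3.11.15 made the figures.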

Additional observations from a re-analysis of the deposited data

Results flagged for a closer look

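In 17 of 194 combinations of a quantity with a group of 4 arrays, 1 array stood apart by more than Dixon's critical ratio. Chance alone gives about 1 in 20 for independent quantities. The quantities here come from the same arrays and many move together, so the count does not measure an excess over chance. Among the macrophage-rich tumours STAT5Δ750_254 stood apart with list means of 6.65 for T and NK cells, 8.47 for B and plasma cells, 8.34 for lymph node stroma and sinus and 10.22 for milk proteins, all above the other macrophage-rich arrays. Its scaled signals of 338.3 for Cd3d, 207.1 for Cd22 and 320.8 for Marco were above, and that of 107.3 for Folr2 below, the other macrophage-rich arrays. STAT5Δ750_165 was apart with a luminal epithelium mean of 9.34 and a Laptm5 signal of 560.2, both below its group.

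Among the macrophage-poor tumours STAT5ca_213 stood apart with a mean of 8.08 for the C1q and Fc receptor list, where the others had 7.31 to 7.41, and of 6.88 for the CSF1 and recruitment list. Its signals of 190.3 for Adgre1 and 847.4 for C1qb were also above its group, where the others had 130.8 to 133.7 and 556.2 to 588.1. This was the array just inside the lower edge of the ranking, with a beta-actin ratio of 5.23. STAT5Δ750_178 was apart with a Cd209b signal of 4.759, a level below the offset, STAT5ca_159 with an Aldoa signal of 3576 and STAT5Δ750_92 with a Stat5b signal of 261.9.

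In 5 of 95 quantities every macrophage-rich STAT5Δ750 tumour lay on one side of the macrophage-poor STAT5Δ750 tumours and the STAT5ca tumours had the reverse order. This difference was not tested here and rests on 1 macrophage-rich STAT5ca tumour. Random orders of so few arrays give counts of this size, so the count is not a result about these quantities. Within STAT5Δ750 the inflammatory list differed by 0.92, against -0.87 within STAT5ca. The granulocyte list differed by 0.94 against -1.30 and the basal and myoepithelial list by 1.36 against -0.53. Arg1 differed by 2.17 against -1.20 and S100a8 by 2.44 against -3.75.

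Tumour STAT5ca_177, left out for its low Krt8 signal, had a macrophage score of 12.07, above the 10.09 to 10.15 of the normal glands and above every ranked tumour.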

How the results depend on the processing

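The count of 0 passing genes became 1 with the deposited scaling (Slamf9, limma adjusted p = 0.00936), 3 after quantile normalization (Slamf9, C1qc and Evi2a), 1 with an offset of 1 (Slamf9), 1 with a filter at the 60th percentile (Slamf9) and 1 with the score as a continuous covariate (C1qc). Leaving out 1 array at a time gave 0 to 1, with 1 (Evi2a) without STAT5ca_123. The test of the slopes between transgenes gave 0 wherever it was run. Genes with all macrophage-rich arrays above ranged from 236 to 485 with 1 array left out, the latter without STAT5Δ750_254, 434 without STAT5ca_171 and 413 without STAT5ca_213. Those below ranged from 347 to 966, the latter without STAT5ca_159, with 761 without STAT5Δ750_178, 706 without STAT5Δ750_254, 610 without STAT5ca_171 and 595 without STAT5Δ750_165. A group of 3 overlaps less easily than a group of 4, so these counts are larger by construction. Without STAT5ca_124 and STAT5Δ750_254 together they were 485 and 706, the values without STAT5Δ750_254 alone, since STAT5ca_124 is in neither group. With groups ranked on scaled signals they were 335 and 75 (81.7% higher), the beta-actin ratio differed by 0.303, the array median by -2.76, Cd14 by 0.64, Krt8 by 0.10 and Csn2 by 0.32, and the cause was not tested.

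Of 68 genes recomputed, 62 kept their direction under all alternatives run, and 18 of 28 list medians kept their sign. Cd14 was 0.29 with the beta-actin ratio as a covariate and 0.25 with the continuous score, and -0.39 to 0.16 with 1 array left out. Krt8 was 0.10 after quantile normalization and 0.03 with the beta-actin ratio. Without STAT5Δ750_254, Cd3e was -0.20 and S100a8 -0.31, whether or not STAT5ca_124 was left out too. With 1 array left out, Cd3e ranged from -0.20 to 0.67, S100a8 from -0.31 to 1.46 and Krt14 from -0.04 to 1.57. No paired analysis was possible because no tumour number is shared between the groups. Signals near the offset, such as those of Marco outside STAT5Δ750_254 and STAT5ca_124, carry little information on change.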

Other observations

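Genes outside the lists with small unadjusted p, named after their values were seen, included receptors of myeloid cells and lymphocytes. Axl, a receptor kinase that macrophages use to clear dying cells, was at 329, 343, 320 and 211 on the macrophage-rich and at 84.7, 144, 148 and 98.6 on the macrophage-poor arrays. The groups did not overlap, and the difference was 1.30 ± 0.26 (SE, limma adjusted p = 0.301). Il21r, the receptor of interleukin 21, was at 22.1, 24.9, 20.7 and 36.7 against 2.78, 3.01, 2.72 and 5.74, where all macrophage-poor signals were below the offset, with a difference of 1.55 ± 0.30 (limma adjusted p = 0.28).

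In the other direction, Neil3, a DNA glycosylase of dividing cells, was at 60.9, 15.3, 24.1 and 57.3 against 149, 92.5, 93.5 and 145, a difference of -1.55 ± 0.35 (limma adjusted p = 0.312). Sfxn2, a mitochondrial carrier protein, was at 45.5, 32.1, 41.7 and 49.5 against 122, 60.9, 126 and 113, a difference of -1.14 ± 0.24 (limma adjusted p = 0.312). Mb, the oxygen-binding protein myoglobin of muscle, was at 78.7, 39.7, 69.1 and 92.9 against 317, 261, 1427 and 275, a difference of -2.53 ± 0.61 (limma adjusted p = 0.35). STAT5Δ750_178, the array with the highest skeletal muscle mean, was the highest in Mb, and the part of muscle tissue in this difference was not tested.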
